A study of Mus musculus with 435 samples.

Results

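The genes described are those of the mitochondrial ribosome. They are the genes whose annotated symbol starts with Mrpl or Mrps followed by a digit and whose Affymetrix probe set carries no other symbol. Where a gene had more than 1 probe set, the probe set with the highest mean was used. The rule used names alone and found 71 of the 13379 genes measured, 42 named Mrpl (large subunit names) and 29 named Mrps (small subunit names). Another 2 probe sets that shared such a symbol with a second gene were left out. The RefSeq gene table of GRCm38.p6 lists 78 protein-coding genes with such names, so the 71 are most but not all of them.

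Expression was measured in the livers of 435 F2 mice, 1 array per mouse. DBA/2J females had been crossed to C57BL/6 males that were db/+, and the db/+ F1 animals were interbred. Every mouse studied was db/db, that is, homozygous for the mutation that removes the signalling leptin receptor, and every mouse ate chow. The groups were 118 females and 101 males killed at 5 weeks of age and 110 females and 106 males killed at 12 weeks. No group with a working leptin receptor was analysed here, so all differences are differences among obese db/db mice. The strain is written "B57BL/6 X DBA/2" in the sample labels. Each F2 mouse is genetically distinct. The sources do not name litters, and each mouse counted as 1 independent sample. Also recorded for each mouse were plasma glucose, insulin, triglycerides and total cholesterol, the fat fraction of the liver and the percent body fat.

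The mitochondrial ribosome sits in the mitochondrial matrix and translates the few messenger RNAs that mitochondrial DNA encodes, all of them for subunits of the respiratory chain and ATP synthase. All of its proteins are encoded in the nucleus, made in the cytosol and imported, and many have counterparts in bacterial ribosomes while others are found only in mitochondria. The small subunit reads the messenger RNA and the large subunit forms the peptide bond and passes the new chain to the inner membrane. The liver depends on this machinery for fat oxidation and for the energy supply of gluconeogenesis.

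Values are log2 expression, as deposited. They come from probe sets of differing efficiency, so a higher value of 1 gene than of another is not a higher abundance. Member means ran from 3.81 for Mrpl1 to 11.43 for Mrpl42, and 50 members had a mean above 5.80, the median of all gene values, while 21 had a mean at or below it. The median value of an array lay between 5.56 and 5.70. The array names hold a code with 6 values, called the array code below, which no source explains. Codes 1 to 4 held 99, 138, 110 and 86 arrays of all 4 groups, codes 5 and 6 held a single 12-week female each, and the code was a covariate in the fits. The ages were unevenly spread over the codes in both sexes. Code 1 held 35 females and 36 males of 5 weeks, and 15 and 13 of 12 weeks. Code 2 held 23 females and 20 males of 5 weeks, and 43 and 52 of 12 weeks. In 8 arrays the X-linked gene Eif2s3x lay nearer to the mean of the other sex. These arrays were kept under their labels, and without them the numbers of members called in the age and sex comparisons moved by at most 1. In 2 other arrays, both of 5-week females with array code 4, muscle genes stood apart. Ckm, muscle creatine kinase, lay at 10.14 and 10.89, with 5.89 as its highest value in the other arrays, and Actn3, a muscle actinin, lay at 9.12 and 9.67, with 5.46 as the highest elsewhere. Without these arrays females had 31 members lower and 10 higher with age in place of 29 and 10, and the other counts from group comparisons moved by at most 1. The liver label was checked on 10 hepatocyte markers, whose mean value had group medians between 13.52 and 13.64. In bulk tissue, fewer cells of a type and less RNA per cell cannot be told apart.

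Promoter stretches of 9 members are shown because members that fell and members that rose with age both hold short motifs of factors known to regulate nuclear genes for mitochondria. The windows searched ran from 250 bases before to 50 bases after the RefSeq start of each gene (GRCm38.p6), and 63 of the 71 members had one. The motifs were CGCATGCG, the core of the nuclear respiratory factor NRF1, which is its own reverse complement, CCGGAAG, the core bound by ETS factors such as GABP, and AAGATGGC, the core of YY1. Both strands were searched, and the end of CCGGAAG can overlap the start of AAGATGGC. Capitals mark the matches, and each stretch of 90 bases is written 5′ to 3′ on the strand of the gene and lies upstream of the start. Mrps16 has 2 starts in the table, of which 1 is shown. The first 5 genes were lower at 12 weeks in both sexes.
Mrps22, chr9:98601680-98601769, minus strand: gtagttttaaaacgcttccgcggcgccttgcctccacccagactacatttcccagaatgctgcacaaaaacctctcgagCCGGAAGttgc
Mrps27, chr13:99344675-99344764, plus strand: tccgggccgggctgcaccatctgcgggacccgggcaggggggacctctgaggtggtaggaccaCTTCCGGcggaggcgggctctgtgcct
Mrpl32, chr13:14613038-14613127, minus strand: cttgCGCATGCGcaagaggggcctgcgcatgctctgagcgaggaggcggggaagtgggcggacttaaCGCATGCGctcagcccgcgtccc
Mrpl22, chr11:58171570-58171659, plus strand: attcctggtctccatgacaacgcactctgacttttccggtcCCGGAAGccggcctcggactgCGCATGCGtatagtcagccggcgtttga
Mrps16, chr14:20393538-20393627, minus strand: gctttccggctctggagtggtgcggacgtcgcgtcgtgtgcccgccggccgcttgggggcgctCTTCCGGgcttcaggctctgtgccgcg
The next 3 were higher at 12 weeks in both sexes.
Mrpl10, chr11:97041385-97041474, plus strand: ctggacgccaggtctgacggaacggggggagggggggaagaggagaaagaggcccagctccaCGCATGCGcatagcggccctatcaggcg
Mrps18b, chr17:35916601-35916690, minus strand: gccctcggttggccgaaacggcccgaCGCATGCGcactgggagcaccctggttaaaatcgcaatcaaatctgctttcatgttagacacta
Mrps18a, chr17:46110914-46111003, plus strand: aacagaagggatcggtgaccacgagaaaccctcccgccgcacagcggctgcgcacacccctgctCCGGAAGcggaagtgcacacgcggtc
The last is Mrpl18, whose expression went with plasma insulin at 12 weeks.
Mrpl18, chr17:12916252-12916341, minus strand: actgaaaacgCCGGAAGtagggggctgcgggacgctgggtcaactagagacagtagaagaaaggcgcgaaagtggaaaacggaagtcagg

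At least 1 of the 3 motifs lay in 35 of the 63 member windows (55.6%), against 2428 of the 10692 windows of all genes measured (22.7%). The NRF1 core lay in 7 member windows (11.1%, against 3.54% of all), the ETS core in 23 (36.5%, against 16.8%) and the YY1 core in 12 (19.0%, against 4.41%). Among the 20 members that were lower at 12 weeks in both sexes and had a window, 10 held a motif. All 6 members that were higher in both sexes did. The Mrpl32 stretch holds the NRF1 core at 2 places, and the Mrpl22 stretch holds an ETS core and an NRF1 core. A match says only that these letters are present.

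Between 5 and 12 weeks more mitochondrial ribosomal protein genes fell than rose. Calls are of an adjusted p under 0.05 (limma, Benjamini-Hochberg over the 13379 genes). In females 29 of the 71 members were lower at 12 weeks and 10 were higher. Over all genes measured, 24.2% were called lower and 22.1% higher. In males 31 members were lower and 9 were higher, against 24% and 22.3% of all genes. The median difference over the members, 12 weeks minus 5 weeks, was -0.035 log2 in females and -0.037 in males, against 0.0025 and -0.0043 over all genes. The largest falls were those of Mrps22, Mrps27 and Mrpl32 in females and of Mrps22, Mrpl20 and Mrpl32 in males. The largest rises were those of Mrpl34 and Mrpl49 in females and of Mrps18b and Mrpl49 in males.

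The 2 sexes were mostly alike in direction, among the members and over all genes. The sign of the difference was shared by 62 of the 71 members, 23 were called lower in both sexes and 6 higher in both. Another 8 were called in females alone and 9 in males alone, which by itself does not show that the sexes differed. Mrpl45 and Mrps6 were called in opposite directions, and 23 members were called in neither sex. Over all 13379 genes, 10170 shared the sign, 2302 were called lower in both sexes and 2070 higher in both. Opposite calls numbered 70 over all genes, and 5436 genes were called in neither sex. Females and males are separate mice and share no controls in this comparison, but the ages are unevenly spread over the array codes in both. With each array centred on its own median the split was 13 higher and 26 lower in females and 11 and 26 in males. Of the members called, 29 of 39 in females and 31 of 40 in males kept their sign within each of array codes 1 to 4.

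**Figure D1:**
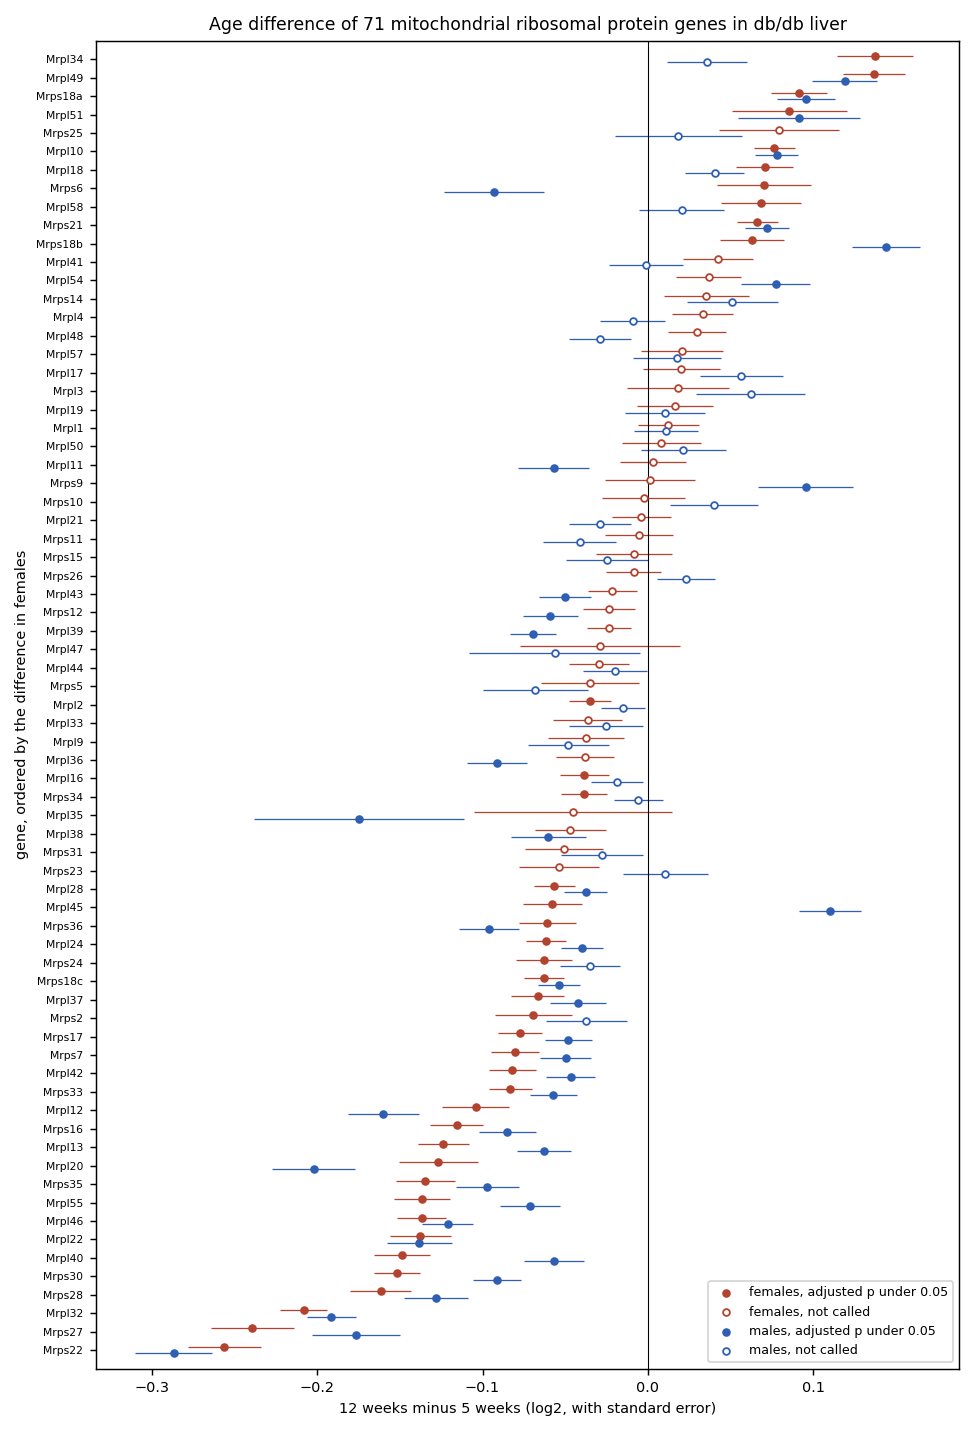
Difference between 12 and 5 weeks (log2, x axis) of the 71 genes in females (red) and males (blue), with 1 standard error as bars. Filled points had an adjusted p under 0.05, and genes are ordered by the difference in females, from Mrpl34 at the top (0.14) to Mrps22 at the bottom (-0.26).

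Mrps22, a small subunit protein with no bacterial counterpart, fell furthest. Its values in 5-week females ran from 9.26 to 10.18 with a median of 9.78, and in 12-week females from 9.10 to 9.86 with a median of 9.53. In males they ran from 9.34 to 10.21 with a median of 9.77 at 5 weeks, and from 9.05 to 9.90 with a median of 9.51 at 12 weeks. The ranges overlapped, but both 12-week medians lay below both 5-week medians. The difference was -0.26 ± 0.022 log2 (SE) in females and -0.29 ± 0.023 in males, that is, -16.3% and -18% in expression (limma, adjusted p = 6.66e-26 and 2.74e-28). Females had -0.32, -0.30, -0.28 and -0.15 within array codes 1 to 4, and males -0.32, -0.27, -0.23 and -0.30. The 4 groups accounted for 40.1% of its variance.

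Mrpl32, the counterpart of bacterial L32, which has to be cut by a protease of the inner membrane before it joins the large subunit, was the member with the largest share of variance between groups (45.7%). Its medians were 9.42 in 5-week females (8.98 to 9.64) and 9.22 in 12-week females (8.87 to 9.39). In males they were 9.43 (9.10 to 9.69) and 9.26 (8.95 to 9.57). The ranges overlapped, and again both older groups had the lower medians. The difference was -0.21 ± 0.014 log2 in females and -0.19 ± 0.015 in males (limma, adjusted p = 9.36e-38 and 8.45e-30), and it lay between -0.28 and -0.12 in each array code of either sex.

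Mrps27, a mitochondria-specific small subunit protein with RNA-binding repeats, went from a median of 8.09 (7.52 to 8.49) to 7.85 (7.38 to 8.21) in females. In males it went from 8.01 (7.52 to 8.48) to 7.86 (7.36 to 8.31). The groups overlapped over most of their range. The difference was -0.24 ± 0.025 log2 in females and -0.18 ± 0.027 in males (limma, adjusted p = 1.63e-18 and 7.24e-10), negative in each of the 4 array codes.

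**Figure D2:**
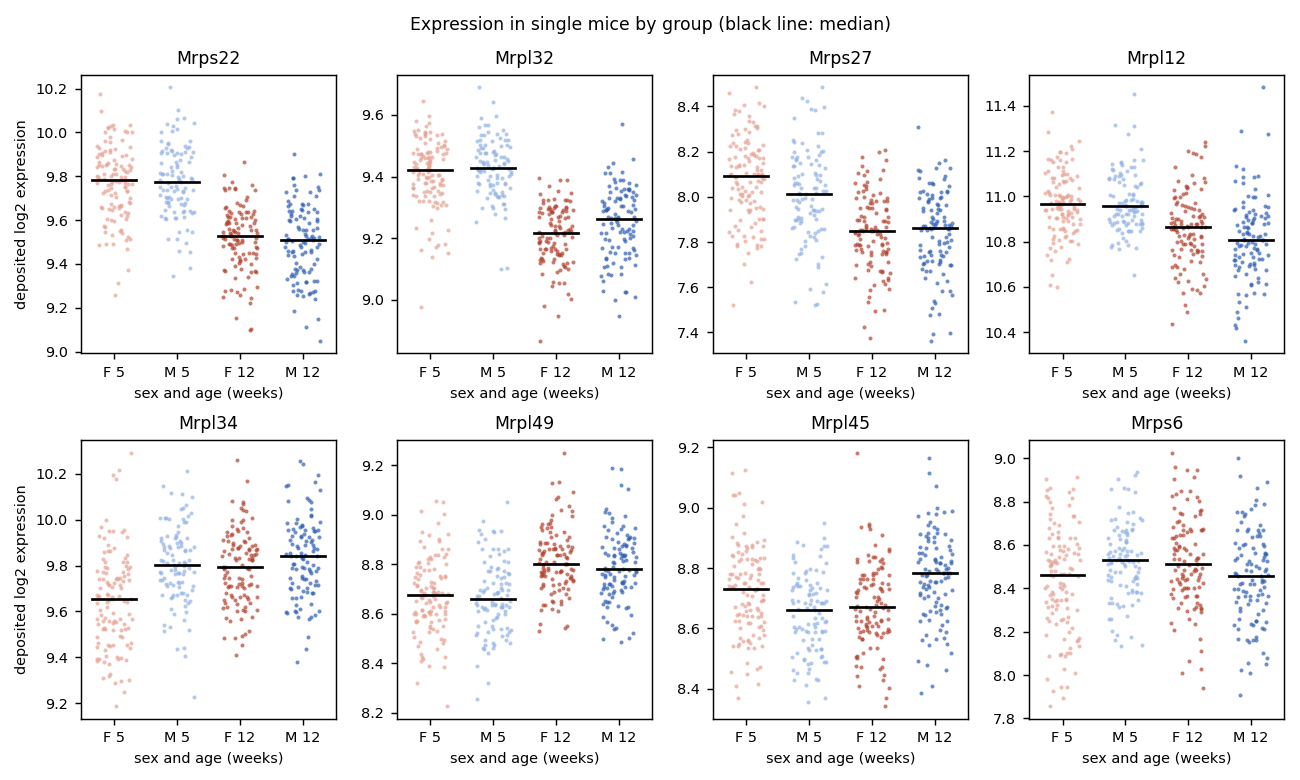
Deposited log2 expression (y axes, each with its own range) in single mice of the 4 groups, F for females and M for males at 5 and 12 weeks, with the median as a black line. Mrps22, Mrpl32 and Mrps27 have lower medians in both 12-week groups, Mrpl49 higher ones, and in Mrpl45 and Mrps6 the sexes moved in opposite directions.

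Among the other large falls, those of Mrps28, Mrps30, Mrpl40, Mrpl22, Mrpl46, Mrpl20 and Mrpl12 stood out by the size of the difference. Mrps28 fell by 0.16 ± 0.018 log2 in females and by 0.13 ± 0.020 in males. Mrpl22, which in bacteria lines the tunnel that the new chain leaves through, fell by 0.14 ± 0.019 and 0.14 ± 0.020. Mrpl46, a mitochondria-specific protein, fell by 0.14 ± 0.015 and 0.12 ± 0.016. The differences in each of the 4 array codes had the same sign as these for all 7 genes in both sexes. Mrpl20 fell by 0.13 ± 0.024 in females and by 0.20 ± 0.025 in males. Mrpl12, the flexible stalk protein that in bacteria recruits translation factors, fell by 0.10 ± 0.020 and 0.16 ± 0.022. The medians of Mrpl12 were 10.97 and 10.86 in females and 10.96 and 10.81 in males, and the groups overlapped. In males alone Mrpl35 was also called, at -0.17 ± 0.064 log2 (limma, adjusted p = 0.0155), with values from -0.028 to -0.43 in the 4 array codes.

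Mrpl34 and Mrpl49 rose most in females. Mrpl34, the counterpart of the small bacterial protein L34, had a median of 9.65 (9.19 to 10.29) in 5-week females and 9.79 (9.41 to 10.26) in 12-week females. The corresponding male medians were 9.80 (9.23 to 10.21) and 9.84 (9.38 to 10.26). The 5-week females had the lowest median of the 4 groups, although all ranges overlapped. The difference was 0.14 ± 0.023 log2 in females (limma, adjusted p = 2.46e-08) and 0.036 in males, which was not called. Mrpl49, a mitochondria-specific protein, went from a median of 8.67 (8.23 to 9.05) to 8.80 (8.53 to 9.25) in females, and from 8.66 (8.25 to 9.05) to 8.78 (8.49 to 9.19) in males. Its ranges overlapped, and both older medians lay above both younger ones. The differences were 0.14 ± 0.019 and 0.12 ± 0.020 (limma, adjusted p = 1.00e-11 and 2.62e-08), positive in every array code of both sexes.

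Mrpl10, the protein that in bacteria anchors the stalk to which Mrpl12 belongs, was higher at 12 weeks while Mrpl12 was lower. Its medians were 9.66 and 9.74 in females and 9.68 and 9.76 in males, in overlapping ranges. The difference was 0.077 ± 0.012 log2 in females and 0.078 ± 0.013 in males (limma, adjusted p = 8.87e-09 and 3.72e-08). Mrps21 rose by 0.066 ± 0.013 and 0.072 ± 0.013. Mrpl51 rose by 0.085 ± 0.035 and 0.092 ± 0.037 (limma, adjusted p = 0.0329 and 0.0309), but within array code 1 its male difference was -0.049. Besides Mrpl34, calls in a single sex among the named rises were Mrpl18 and Mrpl58 in females (0.071 ± 0.017 and 0.068 ± 0.024) and Mrpl54 and Mrps9 in males (0.077 ± 0.021 and 0.095 ± 0.029). Mrpl58 is a peptide release enzyme that became part of the large subunit.

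The 3 genes of the bacterial S18 family split. Mrps18c is the member that takes the place of bacterial S18 in the small subunit, and Mrps18b is also in the small subunit. Mrps18a carries a small subunit name, but in known structures it sits in the large subunit. Mrps18c had medians of 10.83 and 10.79 in females and 10.84 and 10.81 in males at 5 and 12 weeks, and was lower at 12 weeks by 0.063 ± 0.012 and 0.054 ± 0.013 log2. Mrps18a had medians of 9.20 and 9.31 in females and 9.22 and 9.32 in males, and was higher by 0.091 ± 0.017 and 0.096 ± 0.018 log2. Mrps18b had medians of 9.65 and 9.72 in females and 9.72 and 9.86 in males, and was higher by 0.063 ± 0.019 and 0.14 ± 0.021 log2. All 6 differences were called (limma, adjusted p from 7.01e-11 to 0.00354), the groups overlapped in each gene, and the female difference of Mrps18b was -0.029 within array code 3.

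Falls outnumbered rises in both subunits, and the counts that follow stand against 24.2% lower and 22.1% higher over all genes in females and 24% and 22.3% in males. Of the 29 genes with small subunit names, 14 were lower and 4 higher in females, and 13 and 4 in males. Of the 42 with large subunit names, 15 and 6 in females and 18 and 5 in males. The 39 members with a number in the bacterial range (up to 36 for the large and 21 for the small subunit) had 14 lower and 7 higher in females and 16 and 5 in males. The 32 others, mitochondria-specific by that numbering, had 15 and 3, and 15 and 4. Mrps30 and Mrps18a are counted here by their names, although both proteins belong to the large subunit, and Mrps36 is now known as a subunit of the 2-oxoglutarate dehydrogenase complex. Probe set brightness went with the counts: the 50 members above the median of all values had 29 lower and 8 higher in females (28 and 7 in males), and the 21 dimmer members 0 and 2 (3 and 2 in males). Over all genes above that median, 33% were lower and 29.1% higher in females and 29.7% and 32.4% in males, and over all genes at or below it 15.3% and 15%, and 18.3% and 12.2%. Of the dimmer members, 12 of 21 had a difference above 0 in each sex.

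Other genes of mitochondrial translation moved in both directions. Of 4 further mitochondrial ribosome genes measured under other names, 2 were lower in females and 1 in males. Chchd1, a small subunit protein, fell by 0.25 ± 0.020 log2 in females and by 0.24 ± 0.021 in males. Dap3, also a small subunit protein, fell by 0.21 ± 0.024 in females, and its male difference was -0.021 ± 0.025, not called. Of 34 translation and assembly factors, 15 fell and 6 rose in females, and 13 fell and 7 rose in males. Tfb1m, the enzyme that methylates the small subunit's ribosomal RNA, fell by 0.41 ± 0.028 and 0.32 ± 0.030, and the elongation factor gene Gfm1 rose by 0.15 ± 0.037 and 0.22 ± 0.039. The 17 mitochondrial tRNA synthetase and related genes had 7 lower and 3 higher in females and 5 and 5 in males, with Iars2 higher by 0.17 and 0.23 and Wars2 lower (-0.16 and -0.16).

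In the respiratory chain and in the cytosolic ribosome more genes fell than rose as well. Of 70 nuclear-encoded respiratory chain and ATP synthase subunits, 32 were lower and 7 higher in females, and 34 and 13 in males, with medians of -0.028 and -0.032 log2. The 26 cytosolic ribosomal protein genes measured had 14 lower and 3 higher in females and 15 and 2 in males. Of 13 regulators of mitochondrial biogenesis, 2 were higher and 4 lower in females, and 4 and 3 in males. The coactivator Ppargc1a was lower in both sexes (-0.43 ± 0.063 and -0.27 ± 0.067 log2) and so was Myc (-0.22 ± 0.034 and -0.22 ± 0.036). Esrra was higher (0.076 ± 0.031 and 0.19 ± 0.032). Ppara was higher in females (0.14 ± 0.043), and Esrrg and Ppargc1b in males (0.25 ± 0.055 and 0.20 ± 0.051). The genes of the factors whose motifs were searched were not called for Nrf1 (-0.018 and -0.0041) or Gabpa (-0.013 and -0.037), and Yy1 was lower in females (-0.087 ± 0.026) with -0.0025 in males. Gabpb1, another gene of GABP, was lower in males (-0.095 ± 0.030). Among genes of mitochondrial DNA transcription, Polrmt, the mitochondrial RNA polymerase, fell by 0.14 ± 0.019 and 0.11 ± 0.020, and Tfb2m, its partner in promoter opening, rose by 0.081 ± 0.018 and 0.15 ± 0.019.

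Markers of other cell types moved with age in the same mice. Of 11 macrophage markers, 8 were lower at 12 weeks in females and 11 in males, with medians of -0.20 and -0.31 log2. Their mean value had group medians of 8.498 at 5 weeks and 8.30 at 12 weeks in females, and of 8.39 and 8.11 in males. Lymphocyte markers had 4 and 6 of 10 lower, with group medians of their mean value between 4.79 and 4.92 and the lowest array at 4.57. Of 9 endothelial markers, 4 were lower and 1 higher in females and 2 and 2 in males. Of 5 cell cycle genes measured, 4 were lower in each sex, Cdk1 by 1.01 ± 0.049 log2 in females and 0.80 ± 0.052 in males. Mcm2 was higher in males (0.19 ± 0.047). Among 10 hepatocyte markers, 6 were lower and 1 higher in each sex. Ahsg, which encodes the secreted protein fetuin-A, fell by 0.43 and 0.42 log2 in females and males, Cps1 of the urea cycle by 0.21 and 0.18, and the apolipoprotein gene Apoa1 by 0.18 and 0.28. Alb had -0.018 and -0.024 log2. Of 8 stellate and bile duct markers, 4 were lower in each sex and 1 was higher in females, with the bile duct keratin Krt19 at -0.24 and -0.28 log2. Of 2 erythroid markers measured, Alas2, the first enzyme of haem synthesis in red cells, was higher in both sexes (0.41 and 0.21). The other, Klf1, was lower in females (-0.26 ± 0.040) and was not called in males (-0.067). The part of these markers in the age differences of the mitochondrial ribosomal protein genes was not tested.

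Males and females differed in few members. At 5 weeks 4 were higher in males and 9 lower, against 10.5% and 14.4% of all genes. Quantile normalization turned that split to 10 higher and 7 lower. At 12 weeks 6 were higher in males and 1 lower, against 8.97% and 9.08% of all genes, and 10 and 1 with each array centred on its median. Mrpl34 and Mrpl20 led the 5-week differences, at 0.16 ± 0.023 and 0.13 ± 0.024 log2 higher in males (limma, adjusted p = 4.77e-10 and 1.74e-06). The female and male medians at 5 weeks were 9.65 and 9.80 for Mrpl34 and 9.48 and 9.60 for Mrpl20, with overlapping ranges. Mrps6 (0.097 ± 0.028) and Mrps12 (0.056 ± 0.016), the counterpart of the bacterial decoding centre protein S12, were the other members higher in males. Mrps2 (-0.083 ± 0.023), Mrpl40 (-0.080 ± 0.017), Mrpl45 (-0.069 ± 0.018) and Mrps27 (-0.065 ± 0.025) were the furthest below the female level. At 12 weeks Mrps18b (0.13 ± 0.020), Mrpl45 (0.099 ± 0.018), Mrpl54 (0.076 ± 0.020) and Mrpl55 (0.055 ± 0.017) were higher in males. Mrpl48 was lower in males, with a difference of -0.10 ± 0.018 log2 (limma, adjusted p = 8.41e-07). Of these calls, 12 of 13 at 5 weeks and 7 of 7 at 12 weeks had the same sign in each of array codes 1 to 4.

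The age difference itself differed between the sexes for 6 members. It was more positive in males for 4 (5.74% of all genes) and more negative for 2 (2.82%). Quantile normalization gave 2 and 4. Mrpl45, a protein that ties the large subunit to the inner membrane, had the largest such difference, 0.17 ± 0.025 log2 (limma, adjusted p = 8.76e-08). Its medians went from 8.73 (8.37 to 9.12) to 8.67 (8.34 to 9.18) in females and from 8.66 (8.36 to 8.95) to 8.78 (8.39 to 9.17) in males. The ranges overlapped, yet the female median was the higher at 5 weeks and the male median at 12 weeks. In the fit Mrpl45 was lower at 12 weeks in females (-0.058) and higher in males (0.11 ± 0.019). Within array codes 1 to 4 the male minus female difference of the age effect was 0.18, 0.20, 0.17 and 0.14.

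Mrps6, the counterpart of bacterial S6, went the other way. Its medians went from 8.46 (7.86 to 8.91) to 8.51 (7.94 to 9.03) in females and from 8.53 (8.14 to 8.94) to 8.46 (7.91 to 9.002) in males. The ranges were nearly the same in all groups. The age difference was 0.070 ± 0.028 log2 in females and -0.093 in males, and the difference between them -0.16 ± 0.040 (limma, adjusted p = 0.00245). Within array codes 1 to 4 it was -0.23, -0.11, -0.062 and -0.27, although the female age difference was -0.019 in code 2 and the male one 0.012 in code 3. The others were Mrpl40 (0.092 ± 0.024), Mrps18b (0.081 ± 0.027), Mrps30 (0.061 ± 0.020) and Mrpl34 (-0.10 ± 0.033). Mrpl40 and Mrps30 fell in both sexes and further in females. All 6 kept their sign in each of the 4 array codes.

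Within an age, expression was set against the traits of the mice. A slope is the log2 change in expression per 1 SD of the trait, with sex and array code as covariates. Traits were on a log2 scale except body fat, and were scaled within sex and age. At 12 weeks 1 SD of insulin was a 2.13-fold difference in females and 2.32-fold in males, and 1 SD of the liver fat fraction a 1.19-fold and 1.23-fold difference. Of 13 slopes computed per gene, 48 members were called in at least 1 and 23 in none. The share of all genes called in at least 1 slope was not computed. Single slopes called up to 13.4% of all genes higher and up to 14.1% lower. The count of 48 is therefore not set against all genes. Members without a call included Mrpl32 and Mrpl22, which were among the members that fell most with age. The traits were measured in the same mice and are related to each other, so their slopes are not separate evidence.

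With insulin and with liver fat at 12 weeks, members were called in both directions, as were genes over the whole array. With plasma insulin (216 mice), 14 members were higher and 8 lower, against 13.4% and 14.1% of all genes. With the liver fat fraction (215 mice), 12 were higher and 13 lower, against 13% and 13%. Mrps25, Mrps6, Mrpl16, Mrps2 and Mrpl18 were higher in mice with more insulin and more liver fat, and Mrpl24, Mrps35 and Mrps31 were lower. The median slope over the 71 members was -0.0025 for insulin and -0.0040 for liver fat, against 0.0017 and -0.0028 over all genes.

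Mrps25, a mitochondria-specific small subunit protein, had the largest slopes of any member. Its probe set is dim (mean 4.96), and its SD after group and array code, 0.27, lay above that of 86.6% of all genes. Its values at 12 weeks ran from 4.08 to 5.65 with a median of 5.06 in females and from 4.21 to 5.56 with a median of 4.97 in males. Both sexes covered nearly the same range. The insulin slope was 0.13 ± 0.017 log2 per SD (9.15% more expression, limma, adjusted p = 1.43e-10), 0.10 in females alone and 0.15 in males alone, and 0.11, 0.12, 0.11 and 0.15 in array codes 1 to 4. The liver fat slope was 0.12 ± 0.017 (limma, adjusted p = 2.17e-09), between 0.066 and 0.15 in the codes. Mrps25 was called in 8 of the 13 slopes, more than any other member, and was not called for age in either sex.

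Mrpl16, which in bacteria helps to position transfer RNA in the large subunit, and Mrpl24, which lies at the tunnel exit in bacteria, moved in opposite directions. The values of Mrpl16 at 12 weeks ran from 10.28 to 10.88 in females (median 10.64) and from 10.22 to 11.01 in males (median 10.67). Those of Mrpl24 ran from 10.63 to 11.10 (median 10.88) and from 10.64 to 11.24 (median 10.90). Mrpl16 had slopes of 0.047 ± 0.0075 on insulin and 0.053 ± 0.0072 on liver fat (limma, adjusted p = 7.25e-08 and 1.81e-10). Mrpl24 had slopes of -0.041 ± 0.0062 and -0.046 ± 0.0060 (limma, adjusted p = 1.29e-08 and 4.78e-11). Both kept their sign in each of array codes 1 to 4, although the Mrpl24 insulin slope was -0.0021 in code 1. Mrpl16 was called higher in 7 of the 13 slopes and lower in none.

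**Figure D3:**
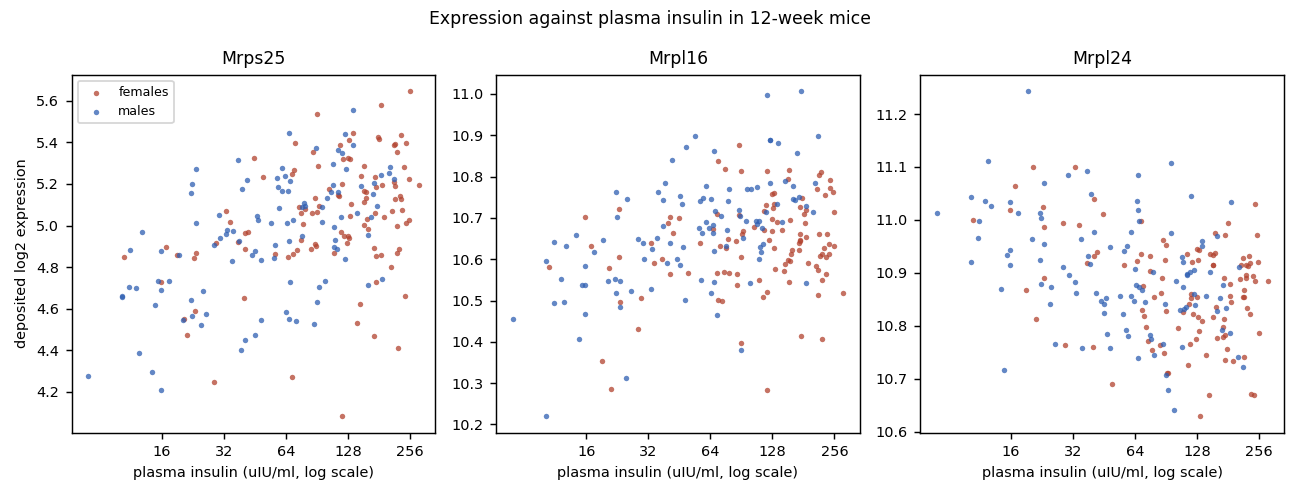
Deposited log2 expression (y axes) of 3 genes against plasma insulin (x axes, uIU/ml on a log scale) in single 12-week mice, females in red and males in blue. Mrps25 and Mrpl16 were higher in mice with more insulin (slopes 0.13 and 0.047 per SD) and Mrpl24 was lower (-0.041).

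Other members were called in both directions, all with smaller slopes than those of Mrps25. Mrps6 had 0.073 ± 0.014 on insulin and 0.058 ± 0.014 on liver fat, and Mrps2 0.047 ± 0.012 and 0.054 ± 0.012. Mrpl18, the counterpart of the bacterial protein that binds 5S ribosomal RNA, had 0.049 ± 0.0084 and 0.037 ± 0.0086. Mrpl35 was called for insulin alone, at 0.084 ± 0.031 (limma, adjusted p = 0.0304), with -0.0036 in array code 4. On the lower side, Mrps35 had -0.042 ± 0.0089 on insulin and -0.057 ± 0.0085 on liver fat, and Mrps31 -0.038 ± 0.012 and -0.044 ± 0.012. Mrps27 was called with liver fat (-0.052 ± 0.012) and had an insulin slope of -0.017 ± 0.012, not called. Mrpl51 was lower with insulin (-0.061 ± 0.018), with 0.011 in array code 4. The insulin calls numbered 0, 11, 0 and 4 members within array codes 1 to 4 alone. Those codes held 15, 43, 29 and 21 females and 13, 52, 21 and 20 males of 12 weeks. The part of these numbers was not tested, and the shares of all genes called within a code were not computed. Of the 22 members called over all mice, 17 had the same sign in all 4 codes.

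With glucose at 12 weeks several of these members went the other way. Glucose had 4 members higher and 7 lower, against 7.41% and 5.5% of all genes. Mrps25 (-0.064 ± 0.019), Mrpl20 (-0.041 ± 0.012), Mrpl18 (-0.040 ± 0.0086) and Mrps26 (-0.040 ± 0.0086) were lower in mice with more glucose. Mrpl51 (0.061 ± 0.018), Mrps14 (0.045 ± 0.013), Mrpl49 (0.029 ± 0.0090) and Mrpl42 (0.028 ± 0.0066) were higher. Mrps25, Mrpl18 and Mrpl51 therefore had glucose slopes opposite to their insulin slopes. In females alone 1 member was called with glucose and in males alone 7, and the shares of all genes in each sex were not computed. These counts do not show that the sexes differed. The difference of the glucose slope between the sexes was called for 0 members, against 2.5% of all genes, with 5 members at an unadjusted limma p under 0.05. Within array code 1 the slopes of Mrpl20, Mrpl49 and Mrpl42 had the other sign (0.069, -0.0051 and -0.0038).

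The glucose that the same mice had at 5 weeks gave 0 members higher and 3 lower at 12 weeks (209 mice, against 4.04% and 2.62% of all genes), and 12 members had an unadjusted limma p under 0.05. They were Mrps25 (-0.060 ± 0.019), Mrps26 (-0.028 ± 0.0089) and Mrps21 (-0.020 ± 0.0068), with adjusted p between 0.0341 and 0.047. This count fell to 1 with arrays centred on their medians, with the plate code in place of the array code or with no code, to 0 with ranked glucose and in either sex alone, and was 5 after quantile normalization.

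Triglycerides at 12 weeks had 8 members higher and 8 lower, against 10.7% and 8.93% of all genes. Mrps25 (-0.050 ± 0.019), Mrps26 (-0.045 ± 0.0084), Mrpl18 (-0.045 ± 0.0085) and Mrpl20 (-0.042 ± 0.012) were lower, and all 4 were also lower with glucose, a trait of the same mice. Mrps27 (0.048 ± 0.012), Mrpl45 (0.037 ± 0.0088), Mrps36 (0.032 ± 0.0086) and Mrpl42 (0.029 ± 0.0066) were higher. Total cholesterol at 12 weeks had 4 members higher and 11 lower, against 6.07% and 7.5% of all genes, and 6 and 7 after quantile normalization. Mrps25 (0.076 ± 0.019), Mrpl16 (0.041 ± 0.0078), Mrps2 (0.036 ± 0.012) and Mrps17 (0.023 ± 0.0072) were higher. Mrps27 (-0.054 ± 0.012), Mrps12 (-0.044 ± 0.0081), Mrps35 (-0.040 ± 0.0092) and Mrpl24 (-0.035 ± 0.0065) were lower. The Mrps17 slope was -0.0057 and -0.0011 in array codes 1 and 4.

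Body fat percent at 12 weeks had 2 members higher and 0 lower, against 3.88% and 2.86% of all genes (12 members at an unadjusted limma p under 0.05). They were Mrpl16 (0.025 ± 0.0079) and Mrpl42 (0.020 ± 0.0068), with adjusted p = 0.0337 and 0.0485. Quantile normalization gave 2 and 3, and without the 8 arrays nearer to the other sex 1 was left.

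At 5 weeks most calls were with triglycerides and cholesterol. Insulin had 0 members higher and 0 lower by limma, against 1.02% and 1.43% of all genes, with 14 members at an unadjusted p under 0.05. Triglycerides had 12 higher and 0 lower, against 9.16% and 5.39%, and 12 and 2 after quantile normalization. Cholesterol had 16 higher and 2 lower, against 10.2% and 7.84%. Mrpl34 led both, with slopes of 0.068 ± 0.012 and 0.064 ± 0.012 (limma, adjusted p = 2.92e-06 and 1.34e-05). Mrps25 (0.060 ± 0.017 and 0.063 ± 0.018) was high in both. Mrps6 (0.057 ± 0.014) and Mrpl49 (0.053 ± 0.0093) were among the highest with triglycerides, and Mrps10 (0.047 ± 0.013) and Mrps18a (0.046 ± 0.0081) with cholesterol. Mrps27 (-0.035 ± 0.013) and Mrpl11 (-0.028 ± 0.010) were lower with cholesterol.

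These 5-week lipid calls were fewer without array code 1. That code held 35 of the 118 females and 36 of the 101 males of that age. The part of the smaller number of mice was not tested, and no other code was left out in turn. Without the arrays of code 1, 5 members were called with triglycerides and 5 with cholesterol. The shares of all genes called without that code were not computed, so the smaller counts cannot be read as particular to these members. Mrpl34 and Mrpl49 kept their triglyceride calls (0.059 ± 0.015 and 0.047 ± 0.012), as did Mrps10, Mrps18a and Mrps27 for cholesterol (0.055, 0.032 and -0.051). The Mrps25 slopes went to 0.028 and 0.035, the Mrps6 triglyceride slope to 0.032, and the Mrpl34 and Mrpl11 cholesterol slopes to 0.042 and -0.018, none of them called.

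The remaining 5-week slopes had few calls. Glucose had 2 members higher and 0 lower, against 4.51% and 3.61% of all genes, Mrps18a (0.033 ± 0.0084) and Mrpl10 (0.025 ± 0.0064). With no array code in the fit 19 were called, and quantile normalization gave 2 and 1. The liver fat fraction had 2 higher and 1 lower, against 3.06% and 2.54%: Mrpl16 (0.025 ± 0.0069), Mrps34 (0.024 ± 0.0067) and Mrps16 (-0.032 ± 0.0079). Quantile normalization gave 3 and 3. Body fat percent had 6 higher and 4 lower, against 8.25% and 5.52%, and 2 and 4 after quantile normalization. Mrpl9 (0.032 ± 0.010), Mrps18a (0.031 ± 0.0083), Mrpl45 (0.028 ± 0.0088) and Mrps26 (0.023 ± 0.0080) led the first, and Mrps22 (-0.036 ± 0.011), Mrpl11 (-0.028 ± 0.010), Mrps28 (-0.027 ± 0.0087) and Mrpl13 (-0.022 ± 0.0076) the second.

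**Figure D4:**
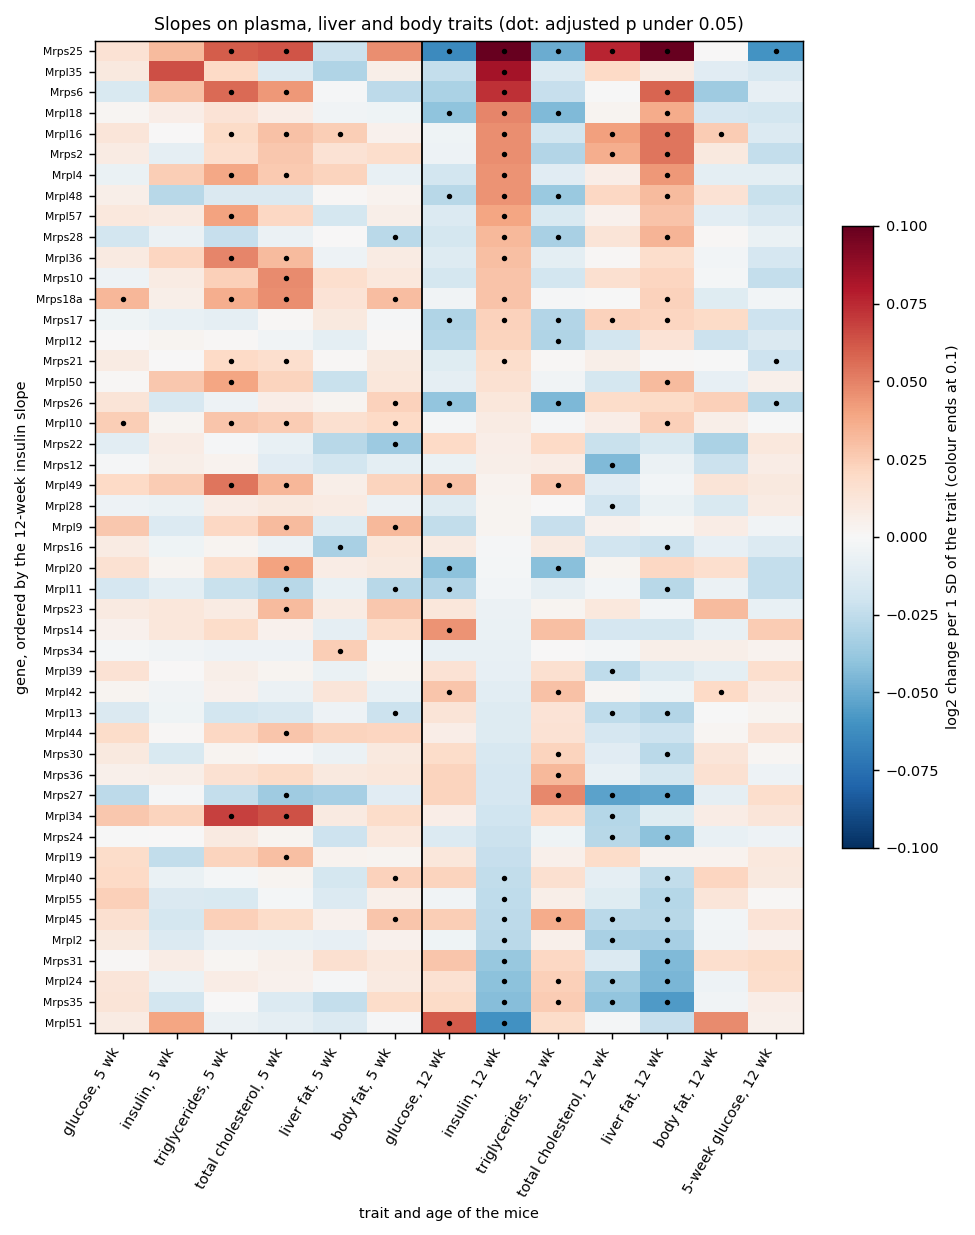
Slopes (colour, log2 change per 1 SD of the trait, red higher and blue lower) of the 48 members called in at least 1 of the 13 slopes, with traits at 5 weeks left of the line and traits of 12-week mice right of it. Dots mark an adjusted p under 0.05, rows are ordered by the 12-week insulin slope, and the 12-week insulin and liver fat columns hold the most dots (22 and 25).

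Slopes differed between the ages for at least 1 member with each of the 6 traits. The difference of the slope, 12 weeks minus 5 weeks, was called for 6 members with glucose (6.58% of all genes), 10 with insulin (13.2%), 16 with triglycerides (16.1%), 8 with cholesterol (9.19%), 11 with liver fat (12.6%) and 1 with body fat (3.65%). For insulin, Mrps25 (0.089 ± 0.025) and Mrpl48 (0.075 ± 0.012) had the most positive differences and Mrpl51 (-0.10 ± 0.025) the most negative. The Mrpl48 insulin slope was -0.028 ± 0.0085 at 5 weeks, not called, and 0.045 ± 0.0087 at 12 weeks. For liver fat, Mrps25 went from -0.021 ± 0.018 to 0.12 ± 0.017. For triglycerides, 14 of the 16 differences were negative, and Mrps25 went from 0.060 at 5 weeks to -0.050 at 12 weeks, a difference of -0.12 ± 0.026 (limma, adjusted p = 0.000141). Mrpl34 had the largest difference for cholesterol (-0.088 ± 0.016). Without array code 1, 7 members were called for the triglyceride difference and 3 for cholesterol, and shares of all genes were not computed. The Mrpl34 difference for cholesterol was then -0.070 ± 0.018, still called, and the Mrps25 difference for triglycerides -0.077 ± 0.030, not called.

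Between the sexes at 12 weeks the slopes of 1 member differed. Mrpl39, a large subunit protein related to threonyl-tRNA synthetases, had a triglyceride slope that was 0.052 ± 0.015 higher in males (limma, adjusted p = 0.0488), with -0.0067 in females alone and 0.041 in males alone. That is 1 of 71 members, against 1.26% of all genes. The count was 0 for glucose (2.5% of all genes), insulin (0.0972%), cholesterol (0%), liver fat (0%) and body fat (0.0448%). At an unadjusted limma p under 0.05 these 5 traits had 5, 2, 2, 2 and 7 members.

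Members varied little between mice of the same group. The SD left after group and array code had a median of 0.13 over the members and 0.17 over all genes. Groups accounted for a median of 4.79% of a member's variance and array codes for 7.25%, with the highest share for codes in Mrpl11 (27.6%). The 4 members with the largest SD were all in dim probe sets. Mrpl35 had 0.44, above 98.3% of all genes, Mrpl47 0.36, Mrps25 0.27 and Mrpl51 0.25. Mrpl35 values ran from 4.76 to 6.61 with a median of 5.63 in 5-week females and from 4.45 to 6.73 with a median of 5.56 in 12-week males. Mrpl47 ran from 3.89 to 5.45 (median 4.75) and from 3.72 to 5.43 (median 4.77) in the same groups. Those ranges are several times wider than the largest age difference of any member.

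The members that vary together are the brighter ones. Over the 435 mice, after removing group and array code, the median Pearson correlation was 0.29 over the 1225 pairs of the 50 brighter members, and 88% of these pairs were positive. Over all 2485 pairs of members the median was 0.076. The median was -0.0036 over all pairs of genes and 0.013 over pairs of all genes above the median value. It was 0.12 among the 26 cytosolic ribosomal protein genes and 0.085 among the 70 respiratory chain and ATP synthase genes. All pairs share arrays, RNA preparations and normalization.

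The closest pair was Mrpl43 and Mrps12 (0.63), from different subunits, followed by Mrpl34 with Mrpl43 (0.62), Mrpl40 with Mrps35 (0.61) and Mrpl10 with Mrpl37 (0.61). The most opposed pair was Mrps6 and Mrps9 (-0.38). Mrpl43 had the highest median correlation with the other members (0.35), followed by Mrps28 and Mrps18a (0.31 each). Mrps9, the counterpart of bacterial S9, had the lowest (-0.10), and Mrpl58 was next (-0.10). Mrps9, Mrps15 and Mrpl21 lie above the median of all gene values (5.80) but are the dimmest members there, with means of 6.09, 6.05 and 6.69. Their median correlations with the brighter members were -0.13, -0.10 and -0.0082. Mrpl13, the next dimmest (mean 6.88), had 0.056. Mrps25, although dim, had a median of 0.15 with the brighter members.

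**Figure D5:**
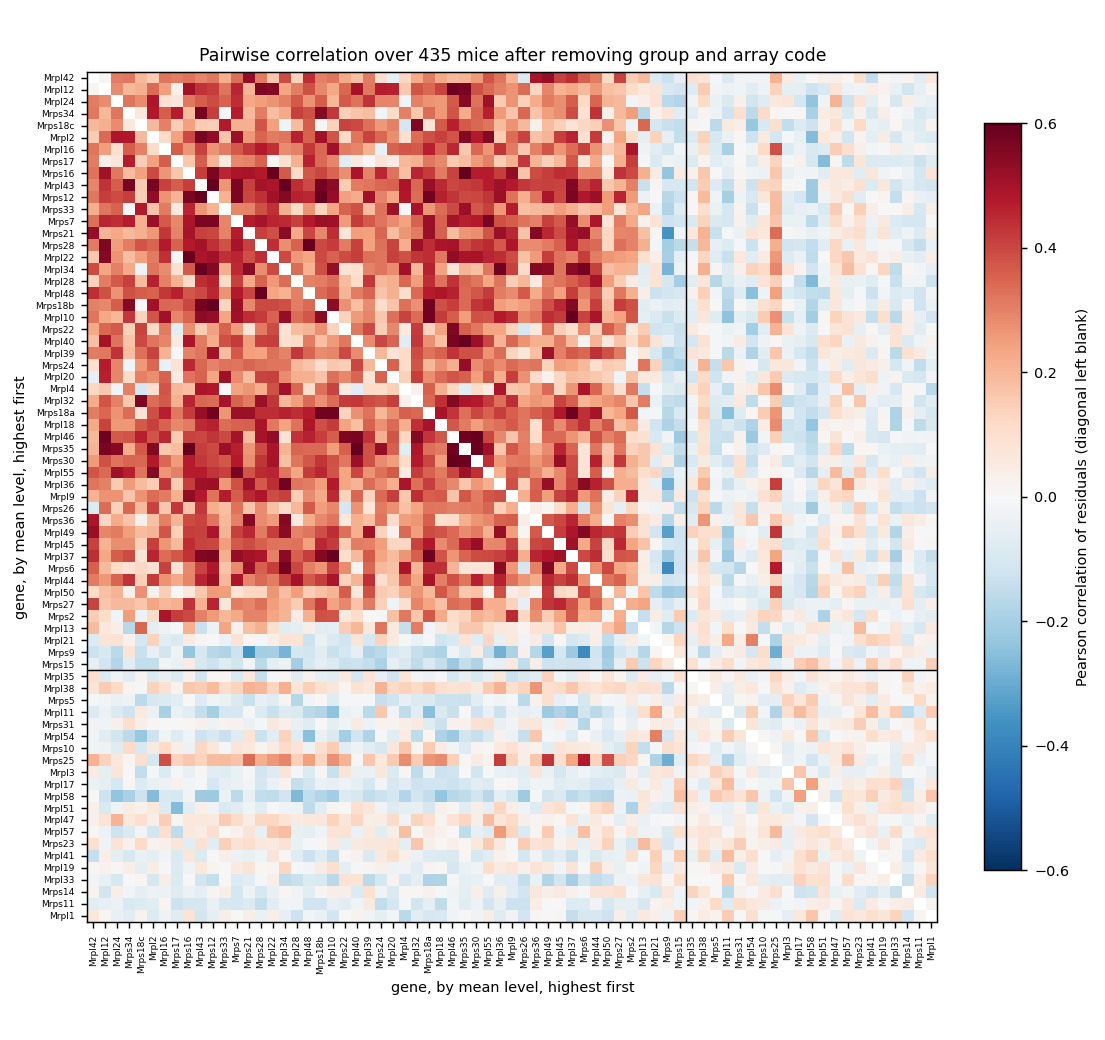
Pearson correlation (colour) of each pair of the 71 genes over 435 mice after removing group and array code, with genes in the same order on both axes, highest mean value first. Lines separate the 50 members above the median of all gene values from the 21 at or below it, and the red block of the former has a median of 0.29.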

How the data were processed

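The deposited values are log2 expression from Affymetrix arrays, 1 per mouse, and RMA is named in the submitters' processing notes. No source gives its version or says whether all arrays were summarised in 1 run. Arrays give no read depth; the number of mice sets the precision. Of 15397 probe sets, 13516 had 1 symbol, 162 several and 1719 none; each of 13379 genes was represented by its probe set of highest mean. R 4.3.3 and limma 3.58.1 (lmFit, eBayes) fitted all genes at once, with the 4 groups and the array code, or per age with a trait, sex and array code. Benjamini-Hochberg adjustment covered all 13379 genes, calls are of an adjusted p under 0.05, and p-values measure the spread between mice. The fits were also run on simulated independent genes with no array code effect. That run checks the computation and says nothing about the results given here.

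Values were given in full for the 8 largest called differences in each direction per age comparison where the text turns on them, the 4 largest per sex comparison and slope, members called in an interaction or slope difference (up to 6 each way), the 4 with the largest SD, the Mrps18 genes and Mrpl12, and from other lists up to 3 in each direction. Mrps25 for age, the motif factors Nrf1, Gabpa and Yy1, Esrra, Alb, Cdk1 and the poorly correlated members were named after their values were seen. Members and lists were chosen with earlier results of these data known. Promoters came from RefSeq (GRCm38.p6). Alternatives were array centring, quantile normalization, no code or the plate code, each code alone, each sex alone, ranked traits, a filter on dim genes, the mean of probe sets, trended robust eBayes, and leaving out the 8 arrays nearer to the other sex. Leaving out array code 1, and 2 arrays with a mean above 8 over 3 adipocyte, acinar and muscle markers, was added after seeing the data.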

Additional observations from a re-analysis of the deposited data

Results flagged for a closer look

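All results listed here are differences between groups under the same comparison, each with its own test (limma, adjusted p under 0.05). The age difference, males minus females, was 0.168 for Mrpl45, 0.092 for Mrpl40, 0.0812 for Mrps18b, 0.0605 for Mrps30, -0.102 for Mrpl34 and -0.163 for Mrps6 (log2). The remaining values are slopes per SD of a trait, 12 weeks minus 5 weeks unless stated.

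With insulin the slope was higher at 12 weeks for Mrps25 (0.0891), Mrpl48 (0.0752), Mrps2 (0.0561), Mrps28 (0.0443), Mrpl16 (0.0442) and Mrpl18 (0.0442). It was lower for Mrpl51 (-0.103), Mrps31 (-0.0498) and Mrpl24 (-0.0334). With liver fat it was higher for Mrps25 (0.133), Mrps6 (0.0639), Mrpl50 (0.0509), Mrpl18 (0.0438), Mrps28 (0.0389) and Mrpl48 (0.035), and lower for Mrps31 (-0.0617), Mrpl24 (-0.0435), Mrpl44 (-0.0411) and Mrps35 (-0.0336). Mrpl48, Mrps25, Mrps28 and Mrpl18 are in both of the higher sets, and insulin and liver fat were measured in the same mice.

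With triglycerides it was lower for Mrps25 (-0.117), Mrps6 (-0.0731), Mrpl36 (-0.061), Mrpl20 (-0.0597), Mrpl18 (-0.0579) and Mrpl57 (-0.0539), and higher for Mrps27 (0.0739) and Mrpl13 (0.0336). With cholesterol it was lower for Mrpl34 (-0.0884), Mrps18a (-0.0434), Mrpl49 (-0.0428), Mrpl44 (-0.0427), Mrpl45 (-0.0425) and Mrpl24 (-0.0378), and higher for Mrpl48 (0.0392). Without array code 1 the triglyceride differences of Mrps25, Mrps6, Mrpl20 and Mrpl57 and the cholesterol differences of Mrps18a, Mrpl49, Mrpl44 and Mrpl45 were not called. With glucose it was lower for Mrps25 (-0.0806), Mrpl20 (-0.0559), Mrps26 (-0.0517), Mrpl18 (-0.0429), Mrps18a (-0.0376) and Mrpl10 (-0.0272). With body fat it was lower for Mrps18a (-0.044). Between the sexes at 12 weeks, the triglyceride slope of Mrpl39 was higher in males by 0.0521.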

How the results depend on the processing

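Over 1620 values of named members under another setting, 1133 kept direction and call, 465 lost the call and 22 reversed. The cause was not tested, and neither was the part of the smaller number of mice in single codes and sexes. Counts of members called that moved by over 1.5 times are given by setting. The shares of all genes called were not computed under these settings, so the counts are not set against all genes. Arrays centred on their medians gave 10 higher in 12-week males and 1 with earlier glucose. Quantile normalization gave 2 and 4 for the age difference between sexes, 10 higher in 5-week males, 5 and 6 for body fat at 12 and 5 weeks, 5 for earlier glucose, 1 for 5-week insulin and 6 for 5-week liver fat. With no array code the counts were 1 for earlier glucose, 19 for 5-week glucose, 3 for insulin and 5 for liver fat. With the plate code they were 5 for 5-week body fat, 1 for earlier glucose and 1 for 5-week insulin. Ranked traits gave 1 for 12-week body fat, 0 for earlier glucose and 1 for 5-week insulin. Without array code 1 there were 5 each for 5-week cholesterol and triglycerides, and 3 and 7 for their slope differences between ages. Without the 8 arrays nearer to the other sex there was 1 each for 12-week body fat and 5-week insulin. Without the 2 arrays high in muscle genes, tried for group comparisons and 5-week slopes, there was 1 for 5-week insulin, and Mrpl11 lost its calls with 5-week body fat and cholesterol (-0.0268 and -0.0264).

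In females alone the counts at 12 and 5 weeks were 4 and 6 for body fat, 3 and 5 for cholesterol, 14 and 0 for liver fat and 7 and 7 for triglycerides, with 1 for glucose, 12 for insulin and 0 for earlier glucose at 12 weeks. In males alone they were 0 and 2, 8 and 11, 11 and 1, and 8 and 4, with 7 and 0 for glucose, 10 for insulin and 0 for earlier glucose.

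Within array code 1 there were 18 lower for age in females, 4 higher and 12 lower in males, 0 and 0 for the age difference between sexes and for sex at 12 weeks, and 1 and 0 for sex at 5 weeks. Code 2 gave 5 higher for age in females, 16 lower in males, 3 higher for sex at 12 weeks and 1 and 1 at 5 weeks. Code 3 gave 2 higher in females, 1 higher and 14 lower in males, 0 and 0 for sex at 12 weeks and 1 and 2 at 5 weeks. Code 4 gave 6 lower in females, 4 higher and 7 lower in males, 0 higher for sex at 12 weeks and 1 and 0 at 5 weeks. Codes 2 to 4 gave 0 and 0 for the age difference between sexes. Slope counts in code 1 were 3 for 5-week body fat and 0 for the others that moved; in code 2, 11 each for 12-week insulin and liver fat, 8 for triglycerides, 5 for cholesterol, 2 for glucose, 1 for earlier glucose and 0 otherwise; in code 3, 2 for 5-week body fat, 1 for 12-week liver fat and 0 otherwise; in code 4, 4 each for 12-week insulin and liver fat, 1 for 5-week body fat and 0 otherwise. Behind counts of 0 by limma stood 1 to 14 members at an unadjusted p under 0.05 in code 1, 0 to 6 in code 2, 0 to 10 in code 3, 0 to 9 in code 4, 7 to 14 in females, 5 to 14 in males and 11 with ranked traits.

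Values that reversed were, in males alone, Mrpl9 with 5-week body fat (-0.0019). In code 1 they were Mrpl13 and Mrps28 with 5-week body fat (0.0109 and 0.0064), Mrpl20, Mrpl42 and Mrpl49 with 12-week glucose (0.0688, -0.0038 and -0.0051), Mrpl20 with triglycerides (0.033), Mrpl51 for age in males (-0.0494), Mrps17 with cholesterol (-0.0057), Mrps35 with insulin (0.0085) and Mrps6 with liver fat (-0.0011). In code 2 they were Mrpl34 with 5-week cholesterol (-0.0126), Mrpl9 with 5-week body fat (-0.0065) and Mrps6 for age in females (-0.0186). In code 3 they were Mrpl11 with 5-week cholesterol (0.0031), Mrps18b for age in females (-0.0286) and Mrps9 for age in males (-0.0271). In code 4 they were Mrpl35 and Mrpl51 with 12-week insulin (-0.0036 and 0.0111), Mrps17 with cholesterol (-0.0011), Mrps25 with triglycerides (0.0127) and Mrps26 with earlier glucose (0.0066). No paired analysis was possible because replicate numbers only name mice and no label pairs mice across groups. Dim probe sets limit what can be seen: 21 members lay at or below the median of all gene values.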

Other observations

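Trait slopes of related gene lists, computed in the same fits, are given here as values. Over all genes, 13.4% were higher and 14.1% lower with 12-week insulin, 7.41% and 5.5% with glucose, and 13% and 13% with liver fat. The shares over all genes at 5 weeks were 9.16% and 5.39% with triglycerides and 10.2% and 7.84% with cholesterol. With insulin at 12 weeks, 12 of 26 cytosolic ribosomal protein genes were higher and 0 lower, and with glucose 0 were higher and 15 lower (limma, adjusted p under 0.05). The 70 respiratory chain and ATP synthase genes had 10 higher and 10 lower with insulin, and 6 and 16 with liver fat. The 34 mitochondrial translation and assembly factors had 0 higher and 4 lower with insulin, and 0 and 6 with liver fat. The 17 mitochondrial tRNA synthetase and related genes had 4 higher and 2 lower with insulin, and 3 and 2 with liver fat. At 5 weeks the cytosolic ribosomal protein genes had 0 higher and 7 lower with triglycerides and 0 and 6 with cholesterol, and the respiratory chain genes 9 and 3, and 14 and 1.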
